A study of Mus musculus with 4 samples.

Results

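The olfactory receptor genes Olfr1417 to Olfr1505 form a run of odorant receptor genes on mouse chromosome 19, and their RNA was measured here in nasal mucosa. The rule for members is the number in the gene symbol and uses no measured value, although the range of numbers was proposed with earlier results of these data known. Of 19938 genes measured by a probe set of exactly 1 gene symbol, 56 were members, and the other 970 Olfr genes served for comparison. RefSeq lists 87 genes with such a number in GRCm38.p6, 60 protein-coding and 27 pseudogenes, and all 87 lie on chromosome 19 between 11828077 and 13919972, a span of 2.09 Mb. All 56 members are protein-coding. Of the 4 other coding genes, Olfr1425 and Olfr1437 shared a probe set with further receptors, while Olfr1432 and Olfr1458 had no probe set of a listed gene and were not analysed here.

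Total RNA came from the lining of the nasal septum and turbinates of 8-week-old mice of the strain written C56BL/6 in the labels. The 4 groups were mice labelled Duox2-/- given flagellin, mice labelled Duox2-/- given PBS, wild-type mice given flagellin and wild-type mice given PBS. Flagellin, the protein of bacterial flagella, was given at 5 ug/ml, with 25 ul into each nostril, and the exposure lasted 4 h. Each group had 1 Affymetrix mouse array, so no value has a replicate. The number of arrays limits the precision of every statement, and the labels do not say whether an array holds 1 mouse or several pooled. Duox2, a hydrogen peroxide-producing oxidase of epithelia, had log2 values of 5.50 and 5.23 in the flagellin and PBS arrays labelled Duox2-/-, against 5.12 and 4.95 in the wild-type flagellin and PBS arrays. It was thus not lower in the arrays labelled Duox2-/-. Where the allele was altered relative to this probe set is unknown here, and its level need not bear on the genotype.

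Odorant receptors are G protein-coupled receptors on the cilia of olfactory sensory neurons, where they bind odour molecules and signal through the G protein Golf, adenylyl cyclase and a cyclic nucleotide-gated channel. A mature neuron expresses a single receptor gene, and mostly a single allele of it, out of one of the largest gene families of the mouse. Each receptor is therefore present in a small fraction of the neurons, and its RNA is diluted in a whole-tissue sample. In such a sample, fewer cells that express a receptor and less of its RNA per cell cannot be told apart.

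Some of the receptors have a coding start nearly the same as that of another receptor of the run. RefSeq windows (GRCm38.p6) of 300 bases, from 250 bases before to 50 after the annotated gene start, were found for 54 of the 56 members, and 47 of these had ATG at the annotated start, so that the last 50 bases were the first coding bases. Over the 1081 pairs among these 47 members, the first 50 coding bases were the same at 34.0% of positions in the median pair, compared with no gaps, but 13 pairs, which involve 21 members, matched at 90% or more. The pairs below are shown because they are among the closest over these bases, which may bear on how far probes can tell neighbours apart. Likeness of the rest of each gene was not examined. Capitals mark the bases that differ, and positions count from 1 at the A of the start codon.
Olfr1446 (chr19:12890526-12890575, minus strand): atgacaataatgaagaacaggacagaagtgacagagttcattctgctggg
Olfr1447 (chr19:12901729-12901778, minus strand): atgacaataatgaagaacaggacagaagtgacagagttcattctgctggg
Olfr1471 (chr19:13445014-13445063, plus strand): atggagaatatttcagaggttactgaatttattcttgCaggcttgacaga
Olfr1474 (chr19:13470972-13471021, plus strand): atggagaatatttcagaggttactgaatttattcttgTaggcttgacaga
Olfr1501 (chr19:13839122-13839171, minus strand): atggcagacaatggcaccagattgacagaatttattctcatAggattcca
Olfr1504 (chr19:13888159-13888208, minus strand): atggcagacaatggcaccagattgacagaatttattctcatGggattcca
Olfr1502 (chr19:13861795-13861844, plus strand): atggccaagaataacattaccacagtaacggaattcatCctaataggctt
Olfr1505 (chr19:13919022-13919071, plus strand): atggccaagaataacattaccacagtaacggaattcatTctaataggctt

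The first coding bases of Olfr1446 and Olfr1447 were identical. The other 3 pairs differed at 1 base each: C38T from Olfr1471 to Olfr1474, A42G from Olfr1501 to Olfr1504 and C39T from Olfr1502 to Olfr1505. Olfr1471 had log2 values of 7.44 and 7.42 in the flagellin and PBS arrays labelled Duox2-/-, and 6.59 and 5.81 in the wild-type flagellin and PBS arrays. Olfr1474 had 5.66, 5.30, 5.21 and 5.04 in the same order. A level of 1 probe set cannot be set against that of another, but the PBS arrays differed by 1.60 for Olfr1471 (labelled Duox2-/- minus wild type) and by 0.27 for Olfr1474. Sharing of probes within such pairs was not tested here, since the probe sequences were not used.

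Most members were dim. The scale is that of RMA, the method per the labels, which as usually run corrects background, normalises arrays to each other by quantiles and gives log2 values. The median of all values in the table was 6.525, which is used here as a mark of low signal and is no detection limit. The 4-array mean reached it in 9 of 56 members, against 11372 of 19938 genes and 282 of 970 other Olfr genes. From Olfr987 to Olfr1318 it was reached in 42 of 233 genes. In at least 1 array 14 members reached it. Member values ran from 2.86 to 8.17 in the flagellin array labelled Duox2-/- (median 5.62), from 2.81 to 7.68 in the PBS array labelled Duox2-/- (median 5.44), from 2.64 to 7.90 in the wild-type flagellin array (median 5.22) and from 2.36 to 7.54 in the wild-type PBS array (median 4.88).

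The members shared an order of the arrays. In 44 of 56 members (78.6%) the lowest of the 4 values was that of the wild-type PBS array, which held for 29.1% of all genes, 61.5% of other Olfr genes and 46.4% of the 8566 genes with a mean under 6.525. In 40 of 56 members (71.4%) the highest value was that of the flagellin array labelled Duox2-/-, against 35.9% of all genes, 58.8% of other Olfr genes and 57.9% of the genes with a mean under 6.525. Both shares in dim genes at large thus lay between those of all genes and those of the members. Among other Olfr genes with a mean under 6.525 the shares were closer to those of the members, at 70.9% and 61.9%. Among the genes from Olfr161 to Olfr206 they were above those of the members, at 87.5% and 78.1%. The interquartile range of all probe sets was 2.43 and 2.54 in the flagellin and PBS arrays labelled Duox2-/-, and 2.73 and 2.79 in the wild-type flagellin and PBS arrays, so the deposited distributions were not equal, and the values of the arrays labelled Duox2-/- were more compressed. Such a gap is not what quantile normalisation of all 4 arrays together would usually leave, and how the arrays were normalised to each other is unknown here. The part of this compression in the receptor differences was measured only through the alternative scalings given with each comparison.

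**Figure D1:**
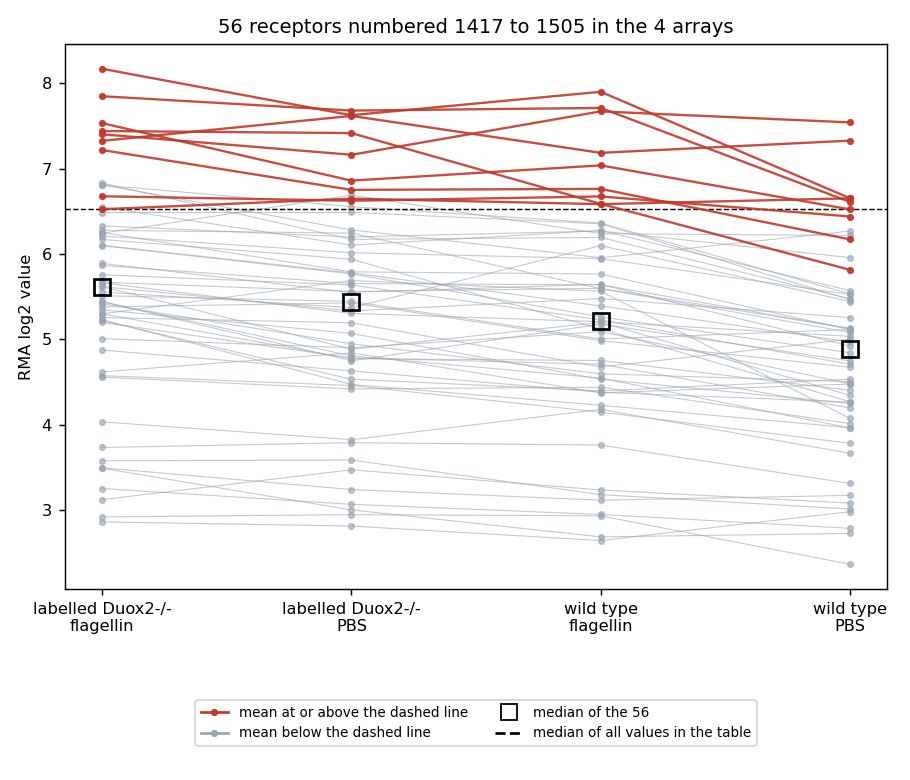
RMA log2 value of each of the 56 receptors (points, with a line joining the 4 values of a gene) in the 4 arrays, 1 array per group; open squares are medians and the dashed line is the median of all values in the table, 6.525. The medians are 5.62, 5.44, 5.22 and 4.88 from left to right, and most lines end lowest at the wild-type PBS array.

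The brightest members did not all follow this order. Olfr1423 had 8.17 and 7.63 in the flagellin and PBS arrays labelled Duox2-/-, against 7.90 and 6.65 in the wild-type flagellin and PBS arrays. Olfr1463 had 7.85 and 7.68 in those labelled Duox2-/-, against 7.71 and 6.61 in wild type. In both genes the wild-type PBS array was the lowest.

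Olfr1428 had 7.53 and 6.86 in the flagellin and PBS arrays labelled Duox2-/-, and 7.04 and 6.52 in wild type given flagellin and PBS. Olfr1427 had 7.22 and 6.75, against 6.76 and 6.17. For both, each flagellin array was above the PBS array of its genotype, and each array labelled Duox2-/- above the wild-type array of the same treatment.

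Olfr1495 went another way, with 7.40 and 7.16 in the flagellin and PBS arrays labelled Duox2-/-, against 7.67 and 7.54 in the wild-type flagellin and PBS arrays. It was 1 of 3 members, with Olfr1448 and Olfr1467, whose mean over the arrays labelled Duox2-/- was below that over the wild-type arrays. Olfr1497 had 7.33 and 7.62, against 7.19 and 7.33, and was lower after flagellin in both genotypes. The dimmest of the 9 differed least: Olfr1500 had 6.68 and 6.62, against 6.68 and 6.44, and Olfr1448 had 6.52 and 6.65, against 6.58 and 6.65.

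The sequence before the coding start is shown for 3 of these genes, Olfr1423 as the brightest, Olfr1471 as the bright gene with the widest gap between the PBS arrays and Olfr1495 as a bright gene with the opposite sign there. Capitals mark the ATG at the annotated start and any match to the motifs searched.
Olfr1423 (chr19:12036691-12036990, minus strand): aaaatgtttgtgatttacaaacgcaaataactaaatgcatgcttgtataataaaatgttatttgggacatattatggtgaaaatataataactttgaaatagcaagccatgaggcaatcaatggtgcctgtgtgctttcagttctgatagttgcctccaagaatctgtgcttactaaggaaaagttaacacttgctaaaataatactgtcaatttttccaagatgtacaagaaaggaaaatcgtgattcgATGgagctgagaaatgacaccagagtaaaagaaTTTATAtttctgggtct
Olfr1471 (chr19:13444764-13445063, plus strand): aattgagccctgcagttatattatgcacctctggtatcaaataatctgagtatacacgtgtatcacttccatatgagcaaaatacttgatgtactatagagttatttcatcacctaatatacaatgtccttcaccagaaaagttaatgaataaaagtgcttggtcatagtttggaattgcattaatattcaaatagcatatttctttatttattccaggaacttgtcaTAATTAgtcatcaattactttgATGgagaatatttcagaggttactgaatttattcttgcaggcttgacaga
Olfr1495 (chr19:13768094-13768393, plus strand): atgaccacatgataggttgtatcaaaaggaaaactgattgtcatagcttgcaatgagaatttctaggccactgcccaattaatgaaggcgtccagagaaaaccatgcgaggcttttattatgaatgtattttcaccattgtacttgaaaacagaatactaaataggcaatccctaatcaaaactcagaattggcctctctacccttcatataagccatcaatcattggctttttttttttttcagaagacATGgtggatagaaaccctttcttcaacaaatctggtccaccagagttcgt

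Because the RefSeq models of these genes begin at the start codon, the windows cover the bases before it and need not hold the transcription start. Motifs were searched on both strands: TAATTA, the core of sites for homeodomain factors such as Lhx2, TATAAA, the TATA box, and the palindrome bound by EBF factors. TAATTA was present in 12 of 54 member windows (22.2%), against 18.4% of 893 windows of other Olfr genes and 5.29% of all 32851 windows. TATAAA was present in 17 of 54 (31.5%), against 41.7% of other Olfr windows and 13.6% of all windows. The EBF palindrome was in 0 of 54, against 0.560% of other Olfr windows and 0.904% of all windows. Olfr1471 had a TAATTA before its start codon, while the match of Olfr1423 lay inside the coding bases and was on the reverse strand. A match is a description of letters and not of a bound site.

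The flagellin difference in the mice labelled Duox2-/- asks which receptor signals were higher 4 h after the bacterial protein. The difference, flagellin minus PBS, had a median of 0.21 over the 56 members (log2), with 45 of 56 above 0 (80.4%, against 48.7% of all genes). No member was 2-fold higher, against 0.221% of all genes and 2.68% of other Olfr genes, and none was 2-fold lower, against 0.466%. The largest differences were 0.76 for Olfr1487 and 0.73 for Olfr1447, both dim, and the lowest was -0.45 for Olfr1444. Among bright members Olfr1428 was higher by 0.67 and Olfr1423 by 0.54, while Olfr1497 was at -0.29. The median was 0.16 over other Olfr genes, 0.10 over genes with a mean under 6.525 and -0.01 over all genes.

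In wild-type mice the same difference had a median of 0.42 over the members, with 46 of 56 above 0 (82.1%, against 52.1% of all genes). The median was 0.24 over other Olfr genes, 0.04 over genes with a mean under 6.525 and 0.01 over all genes. Past 2-fold higher were 3 members, or 5.36%, against 0.838% of all genes and 7.84% of other Olfr genes, and 0 were 2-fold lower, against 0.0552%. These were Olfr1454 at 1.49, Olfr1423 at 1.25 and Olfr1463 at 1.10. Olfr1454, named after its values were seen, was dim, with 5.30 and 5.69 in the flagellin and PBS arrays labelled Duox2-/-, against 5.56 and 4.07 in the wild-type flagellin and PBS arrays. After cyclic loess, which removes intensity-dependent differences between arrays, the member median was 0.16 for the mice labelled Duox2-/- and 0.40 for wild type.

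The response of the arrays labelled Duox2-/- minus that of wild type had a median of -0.16 over the members, with 38 of 56 below 0. The median was -0.06 over other Olfr genes, -0.02 over all genes and 0.07 over genes with a mean under 6.525. Above 0 were 32.1% of members, against 47.1% of all genes and 44.4% of other Olfr genes. That share was 33.0% from Olfr828 to Olfr986 and 25.0% from Olfr161 to Olfr206, so it was not particular to the members. Olfr1454 was past 2-fold lower at -1.88, against 1.38% of all genes, and 0 members were past 2-fold higher, against 0.211%. Among the bright members Olfr1463 was at -0.93, Olfr1471 at -0.75 and Olfr1423 at -0.70. With 1 array per group this difference has no residual degree of freedom and could not be tested.

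**Figure D2:**
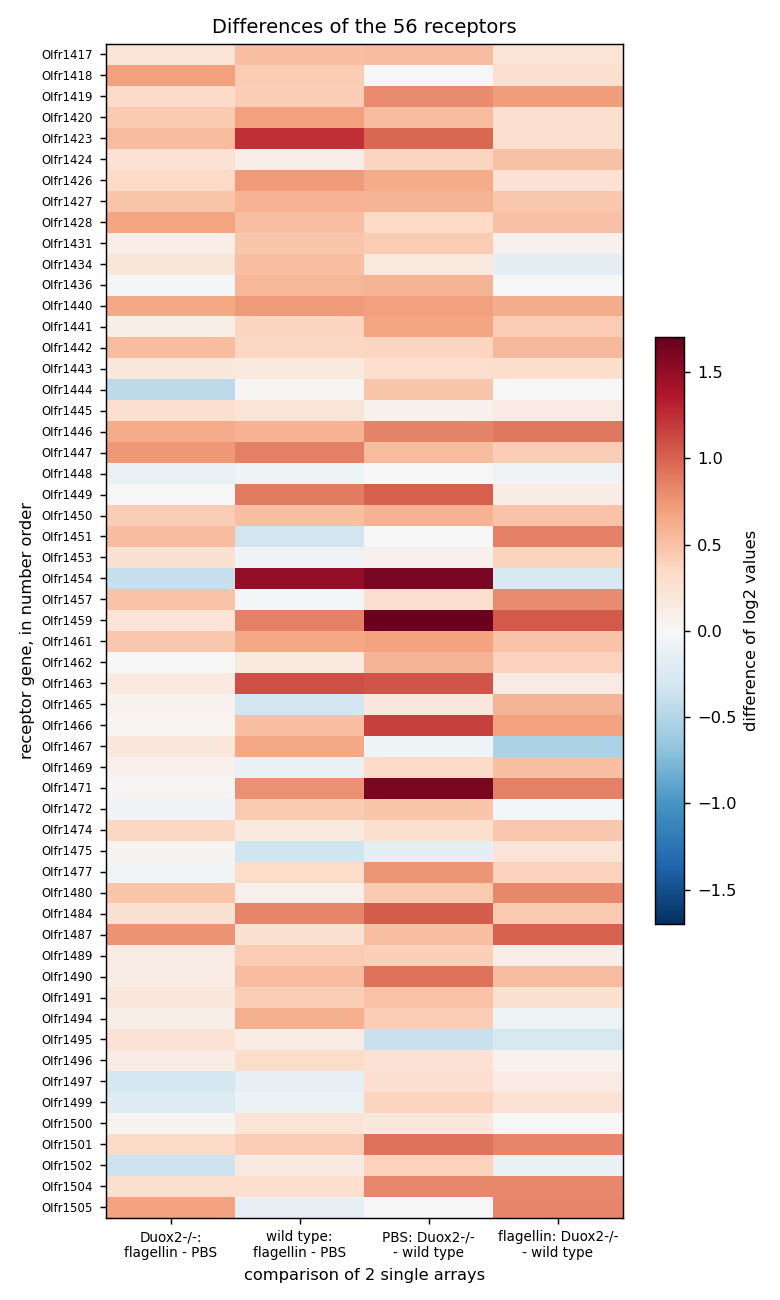
Difference of log2 values (colour) for each of the 56 receptors in number order (rows) in the 4 comparisons of single arrays (columns). Red, higher in the group named first, fills most cells of each column, with the highest value of 1.67 for Olfr1459 between the PBS arrays and the lowest of -0.54 for Olfr1467 between the flagellin arrays.

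The next question is which receptor signals differed with the genotype label in mice given only PBS. Most receptors were higher in the array labelled Duox2-/-: the median difference was 0.47 (log2), and 51 of 56 were above 0 (91.1%, against 56.3% of all genes). At least 2-fold higher were 7 members, or 12.5%, against 1.34% of all genes and 13.2% of other Olfr genes, and 0 were 2-fold lower, against 0.226% of all genes. The 7 were Olfr1459 at 1.67, Olfr1454 at 1.62, Olfr1471 at 1.60, Olfr1466 at 1.16, Olfr1463 at 1.07, Olfr1449 at 1.02 and Olfr1484 at 1.02, of which Olfr1449 and Olfr1484 were named after their values were seen. The median was 0.38 over other Olfr genes, 0.21 over genes with a mean under 6.525 and 0.04 over all genes. The wild-type PBS array enters both this comparison and the wild-type flagellin difference, so a low value in that array gives a positive difference in each.

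Between the flagellin arrays, the one labelled Duox2-/- against wild type, the median difference was 0.39, with 47 of 56 above 0 (83.9%, against 50.6% of all genes). It was 0.29 over other Olfr genes and 0.29 over genes with a mean under 6.525. Past 2-fold higher were 2 members, or 3.57%, against 0.476% of all genes and 3.61% of other Olfr genes, and 0 were past 2-fold lower, against 1.18%. Both, Olfr1459 at 1.05 and Olfr1487 at 1.002, were dim, and no member was past 2-fold after the arrays were centred on their medians or after cyclic loess. After cyclic loess the member medians were 0.31 under PBS and 0.19 under flagellin. Those of other Olfr genes were 0.235 and 0.142, and those of genes with a mean under 6.525 were 0.04 and 0.06. Another run of receptors by number, the 32 measured genes from Olfr161 to Olfr206, had higher medians than the members in all 4 comparisons: 0.29 and 0.56 for flagellin with the label Duox2-/- and in wild type, and 0.77 and 0.42 for the label Duox2-/- against wild type under PBS and flagellin.

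**Figure D3:**
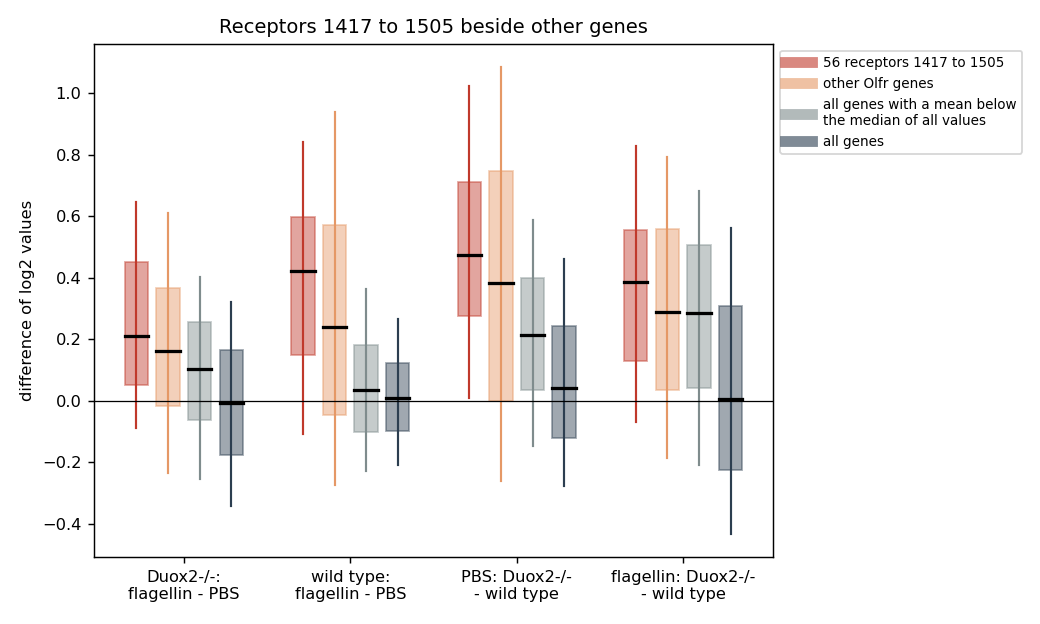
Differences of log2 values in the 4 comparisons for the 56 receptors, the other 970 Olfr genes, the 8566 genes with a mean below the median of all values and all 19938 genes; boxes span the quartiles, black bars are medians and lines reach the 10 and 90 percentiles. The receptor medians of 0.21, 0.42, 0.47 and 0.39 lie above those of the other 3 groups drawn, which do not single out other runs of receptors.

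An additive limma model, with a genotype shift common to both treatments and a flagellin shift common to both genotypes, was fitted to all 19938 genes with Benjamini-Hochberg adjustment. It has 1 residual degree of freedom, the interaction, so its p-values set each shift against that single contrast and the spread borrowed from other genes, and not against animals. Anything else that differed between the pair of arrays labelled Duox2-/- and the wild-type pair cannot be told apart from the genotype.

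The genotype term was above 0 in 53 of 56 members, with a median of 0.42. The median was 0.355 over other Olfr genes, 0.59 from Olfr161 to Olfr206, 0.26 over genes with a mean under 6.525 and 0.02 over all genes. How many genes outside the members had a genotype term above 0 was not counted. An adjusted p of 0.05 was passed by 17 members, all higher in the arrays labelled Duox2-/-. That is 30.4% of members, against 7.03% of all genes called higher, 31.4% of other Olfr genes and 13.7% of genes with a mean under 6.525. The share is thus near that of the receptor family as a whole. No member was called lower, against 2.39% of all genes, and 1 member, Olfr1495, was lower at an unadjusted limma p under 0.05, against 9.22% of all genes. At that unadjusted p, 34 members were higher (60.7%, against 20.3% of all genes, 50.8% of other Olfr genes and 39.7% of genes with a mean under 6.525). These calls depend on the scaling. After the arrays were centred on their medians 10 members were called, when 2.25% of all genes were called higher. After cyclic loess 0 members were called, when 0.00502% of all genes were called higher. At an unadjusted limma p under 0.05, 20 members were higher after loess. The shares of all genes and of other Olfr genes higher at that p after loess were not counted, so the 20 have no background beside them. Of the 17, 15 had a mean under 6.525. In 15 of the 17 both arrays labelled Duox2-/- lay above both wild-type arrays. The calls were made from these same values, so that order in a called gene is no separate support. It held for 30 of all 56 members (53.6%, against 34.4% of all genes and 49.6% of other Olfr genes).

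Olfr1459 had the largest genotype term. Its log2 values were 6.17 and 5.94 in the flagellin and PBS arrays labelled Duox2-/-, against 5.12 and 4.27 in the wild-type flagellin and PBS arrays, so the groups did not overlap. The term was 1.36 ± 0.17 (SE, limma adjusted p = 0.00578). Olfr1471, given above, followed at 1.23 ± 0.18 (limma adjusted p = 0.00979).

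Olfr1466 had 6.28 and 6.25 in the arrays labelled Duox2-/-, against 5.59 and 5.08 in wild type, and a term of 0.92 (limma adjusted p = 0.0159). Olfr1501 had 6.10 and 5.77, against 5.26 and 4.84, and a term of 0.88 (0.0121). Olfr1504, with nearly the same coding start as Olfr1501, had 5.35 and 5.07, against 4.53 and 4.25, and a term of 0.82 (0.0152). In each of these genes the flagellin array was the higher of each genotype, and both arrays labelled Duox2-/- were above both wild-type arrays.

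Olfr1446 had 5.44 and 4.81 in the flagellin and PBS arrays labelled Duox2-/-, against 4.55 and 3.96 in the wild-type arrays, with a term of 0.87 (limma adjusted p = 0.0122). Its neighbour Olfr1447, with the identical coding start, had 5.62 and 4.89, against 5.20 and 4.34, and its term of 0.48 missed the threshold (0.0550). Olfr1440 had 6.83 and 6.17, against 6.19 and 5.47, and a term of 0.67 (0.0265). Its wild-type flagellin array lay just above the PBS array labelled Duox2-/-, so the groups overlapped.

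Olfr1419 (0.76), Olfr1487 (0.75) and Olfr1490 (0.73) completed the 10 members with the lowest p, and each had both arrays labelled Duox2-/- above both wild-type arrays. The remaining 7 called members, Olfr1427, Olfr1441, Olfr1450, Olfr1461, Olfr1477, Olfr1480 and Olfr1484, had terms from 0.52 to 0.73 and limma adjusted p from 0.0307 to 0.0460. The bright genes Olfr1423 and Olfr1463 had terms of 0.62 (adjusted p = 0.0539) and 0.60 (0.0815) and did not pass. Olfr1423 did pass with a variance that depends on the level (limma adjusted p = 0.0388) and with averaged probe sets (0.0486). Averaging changed only the values of other genes, since Olfr1423 has 1 probe set. Its adjusted p ran up to 0.163 in the other alternatives. Olfr1495 was at -0.32 (0.150).

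**Figure D4:**
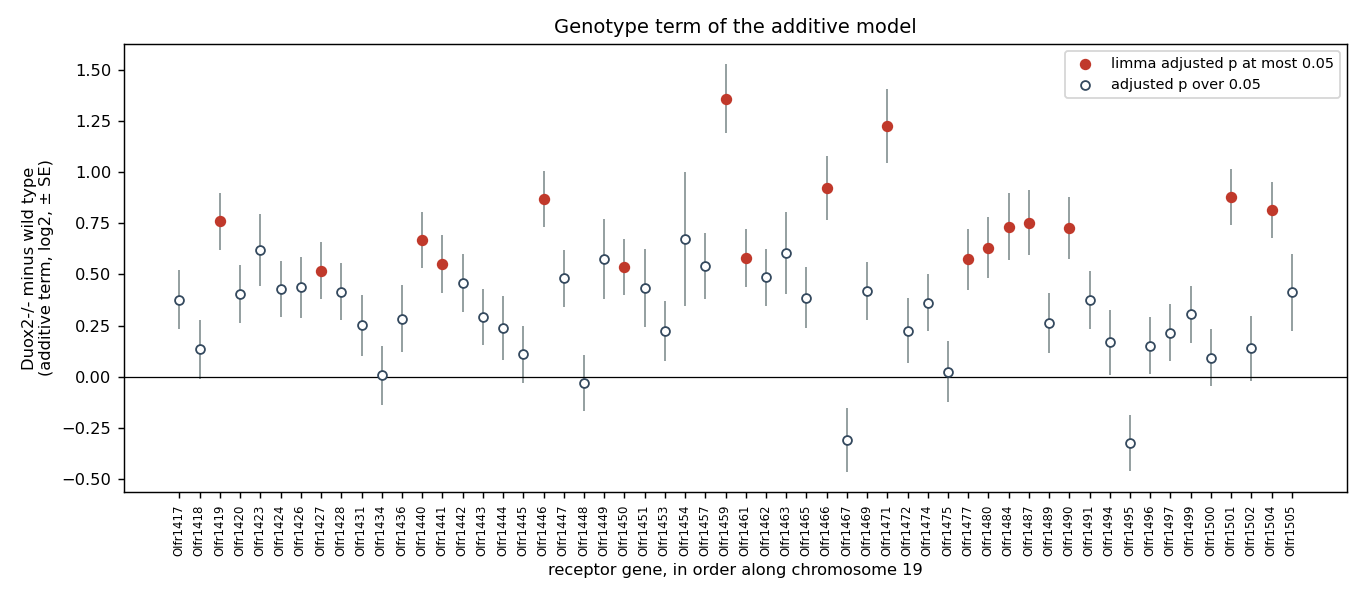
Genotype term of the additive limma model, arrays labelled Duox2-/- minus wild type, on the log2 scale with its standard error, for the 56 receptors in order along the chromosome. The 17 filled points passed an adjusted p of 0.05 and lie between 0.52 and 1.36; the 3 points below 0 did not pass.

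The flagellin term was above 0 in 48 of 56 members, with a median of 0.28. The median was 0.18 over other Olfr genes, 0.42 from Olfr161 to Olfr206, 0.07 over genes with a mean under 6.525 and -0.003 over all genes. How many genes outside the members had a flagellin term above 0 was not counted. Both flagellin arrays lay above both PBS arrays in 17 of 56 (30.4%, against 9.09% of all genes and 22.0% of other Olfr genes). No member passed the adjusted threshold in limma, against 0.261% of all genes called higher and 0.0401% called lower. At an unadjusted limma p under 0.05, 23 members were higher (41.1%, against 4.18% of all genes and 34.4% of other Olfr genes) and 0 were lower, against 2.90% of all genes. The lowest adjusted p was that of Olfr1447, at 0.0546 for a term of 0.80. Olfr1423, with the largest term of 0.90, had an adjusted p of 0.101, and Olfr1440 followed with 0.69 (0.102). Olfr1423 passed only when the variance was let depend on the level, and Olfr1447 only when a gene's probe sets were averaged. Each member has 1 probe set, so averaging left the values of Olfr1447 as they were. Its adjusted p moved only through the values of other genes. Olfr1440 passed in none of the 5 alternatives that tested it. Among other Olfr genes 37 were called higher (3.81%) and 1 lower for flagellin. The share called higher was 5.15% from Olfr987 to Olfr1318, 0.943% from Olfr828 to Olfr986 and 18.8% from Olfr161 to Olfr206.

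Along the chromosome, gaps of over 100 kb divided the members into 4 stretches. The stretch from Olfr1417 to Olfr1420 held 4 members, that from Olfr1423 to Olfr1441 held 10, Olfr1442 and Olfr1443 stood together, and that from Olfr1444 to Olfr1505 held 40. Median differences between the PBS arrays, labelled Duox2-/- minus wild type, were 0.53, 0.58, 0.33 and 0.46 in this order. The wild-type flagellin differences had medians of 0.47, 0.54, 0.26 and 0.30, and all 16 members of the first 3 stretches were above 0, against 30 of 40 in the last. In the arrays labelled Duox2-/- the flagellin medians were 0.39, 0.29, 0.36 and 0.15. Differences between the stretches were not tested.

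Genes of the mature neurons that carry the receptors had other median differences. A list of mature olfactory neuron genes, of which 15 of 16 were matched, holds Omp, a marker of mature neurons, the G protein subunit Gnal, the cyclase Adcy3 and the channel subunit Cnga2. Omp had log2 values of 12.16 and 11.85 in the flagellin and PBS arrays labelled Duox2-/-, against 11.99 and 11.94 in the wild-type flagellin and PBS arrays, which shows RNA of olfactory neurons in every array. Between the PBS arrays the list had a median of -0.06, with 4 of 15 above 0, where the receptors had 0.47. In wild type the flagellin median was 0.08, with 12 of 15 above 0, where the receptors had 0.42. In the arrays labelled Duox2-/- it was 0.30, with all 15 above 0, where the receptors had 0.21. All 15 had a mean of at least 6.525, which 9 of 56 receptors had, so the 15 genes and the receptors also differ in signal level. After cyclic loess the neuron genes had a median of -0.007 between the PBS arrays, where the receptors had 0.31. For flagellin they had 0.08 in wild type, where the receptors had 0.40, and 0.41 with the label Duox2-/-, where the receptors had 0.16.

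Between the flagellin arrays the neuron list was at 0.16, with all 15 above 0, where the receptors had 0.39. This order turned after cyclic loess, with 0.28 for the neuron list and 0.19 for the receptors. In limma 0 of 15 passed for either term, and at an unadjusted p under 0.05 there was 1 for flagellin, higher, and 0 for genotype. The list of receptor trafficking proteins and factors of receptor choice, all 15 matched, had flagellin medians of 0.23 with the label Duox2-/- and 0.08 in wild type. For the arrays labelled Duox2-/- against wild type its medians were 0.11 under flagellin and 0.01 under PBS, the second turning to -0.07 after centring. Rtp1, a chaperone that brings receptors to the cell surface, had 9.90 and 9.57, against 9.65 and 9.48. None of these 15 passed for either term in limma, with 1 at an unadjusted p under 0.05, higher for flagellin. The 10 immature neuron genes had flagellin medians of 0.13 with the label Duox2-/- and -0.01 in wild type. For the arrays labelled Duox2-/- against wild type their medians were 0.11 under PBS and 0.23 under flagellin, with 9 of 10 above 0 in each. These were 0.13 and 0.34 after cyclic loess. The 7 matched genes of olfactory progenitors had 0.25 under PBS, with 5 above 0, and -0.10 under flagellin, with 2 above 0. Differences between these lists and the receptors were not tested.

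**Figure D5:**
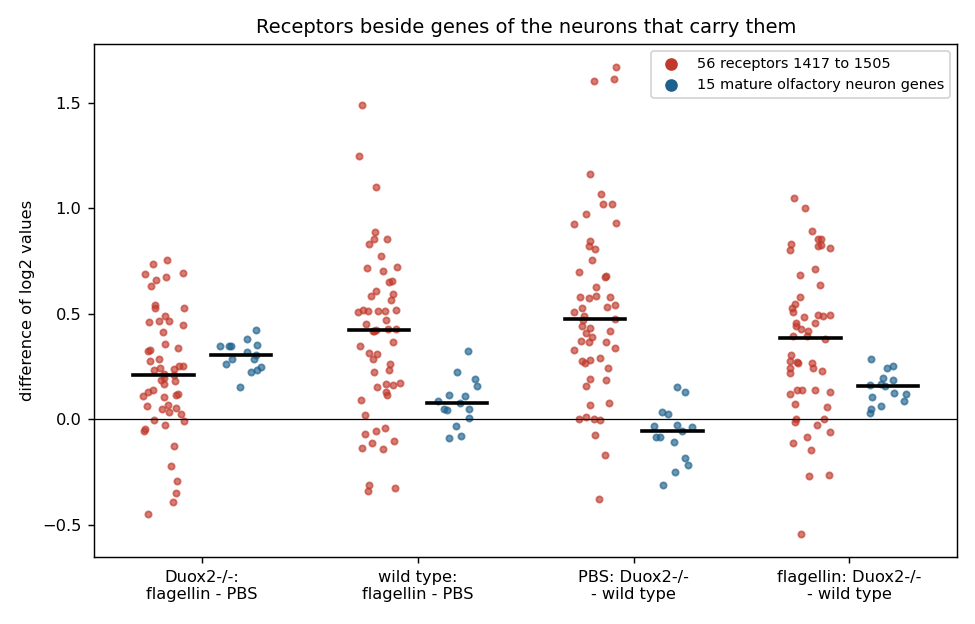
Difference of log2 values in the 4 comparisons for the 56 receptors (red) and 15 genes of mature olfactory neurons (blue); black bars are medians. The neuron genes lie at 0.30, 0.08, -0.06 and 0.16, and the receptors at 0.21, 0.42, 0.47 and 0.39.

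Markers of other cells differed between the same arrays. The 13 neutrophil genes had median levels of 6.73 and 6.36 in the flagellin and PBS arrays labelled Duox2-/-, against 7.28 and 5.57 in the wild-type arrays, and 11 of 13 were higher in the wild-type flagellin array than in the wild-type PBS one. The 10 skeletal muscle genes had 5.75 and 8.15, against 6.72 and 5.32, and all 10 were higher in the PBS array labelled Duox2-/- than in the wild-type one. The 8 squamous and basal epithelium genes had 5.77 and 6.17, against 7.99 and 7.02, and 0 of 8 were higher in the flagellin array labelled Duox2-/- than in the wild-type one. The 6 matched genes of sustentacular cells, which support the neurons, had 10.48 and 10.33, against 10.72 and 10.81. The part of these marker differences in the receptor values was not tested.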

How the data were processed

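The deposited table holds log2 values, made by the authors with RMA in Affymetrix Expression Console 1.1 per the submitters' processing notes; the scale is read from the values. RMA as usually run corrects background, normalises by quantiles and summarises probe sets, but the deposited arrays differ in median and spread, so the normalisation between arrays is uncertain. The build and the pooling of animals are not given in the sources used here.

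Of 35556 probe sets, 21789 had 1 gene symbol, 1621 several and 12146 no listed gene in the platform annotation. A gene took the probe set with the highest 4-array mean, and each member had only 1. All 56 members were matched to RefSeq (GRCm38.p6) by gene ID. Windows around gene starts are from RefSeq.

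Differences are of single arrays, with no test. The additive model used limma 3.58.1 in R 4.3.3 (lmFit, eBayes, 9 prior degrees of freedom, prior SD 0.144) on all genes with no filter. It was also run on simulated data with independent noise of that SD and shifts in the flagellin arrays only. Genotype shifts and arrays of unequal spread were not simulated. Replicates are absent, so p-values measure no spread between animals. Other work used Python 3.11.15, numpy 2.4.6, pandas 2.3.3 and matplotlib 3.10.9.

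Named members are the 6 brightest, the 4 highest and 4 lowest of each comparison among those with a mean of at least 6.525, up to 10 called members per term and direction by lowest p, and the lowest and highest number. Other members named, among them extremes and near misses, were named after their values were seen. From a list, up to the 4 brightest genes are given with values. The 12 gene lists held 116 genes, of which 111 were matched. Members and lists were chosen with earlier results of these data known. Alternatives were centring, cyclic loess, 2 filters, averaged probe sets, a variance trend and a 1.5-fold size.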

Additional observations from a re-analysis of the deposited data

Results flagged for a closer look

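For 15 of 56 members the flagellin difference had opposite signs in the 2 genotypes, which drew attention to them. The same count was not made over all genes or other Olfr genes, so 15 of 56 cannot be called many or few. Of all genes, 48.7% were above 0 for flagellin with the label Duox2-/- and 52.1% in wild type. With 1 array per group the difference between genotypes was not tested, and each of these genes had a mean under 6.525. In 8 of them flagellin was lower than PBS with the label Duox2-/- and higher in wild type. Olfr1454 was at -0.39 with the label Duox2-/- and at 1.49 in wild type, a difference of -1.88. Olfr1449 was at -0.002 and 0.89, a difference of -0.89, so its opposite sign rests on a value next to 0. The differences of the other 6 were -0.59 for Olfr1436, -0.51 for Olfr1472, -0.50 for Olfr1502, -0.47 for Olfr1444, -0.36 for Olfr1477 and -0.18 for Olfr1462.

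In the remaining 7 flagellin was higher than PBS with the label Duox2-/- and lower in wild type. Olfr1451 was at 0.53 with the label Duox2-/- and at -0.31 in wild type, a difference of 0.84. Olfr1505, the member with the highest number, was at 0.69 and -0.14, a difference of 0.82, and it had the same value, 4.53, in both PBS arrays. The differences of the other 5 were 0.53 for Olfr1457, 0.39 for Olfr1475, 0.38 for Olfr1465, 0.31 for Olfr1453 and 0.18 for Olfr1469.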

How the results depend on the processing

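No paired analysis was possible because each group has 1 array, and for the same reason no replicate could be left out. The median member difference stayed above 0 in all 4 comparisons under centring, cyclic loess and the mean-level filter. The median difference of responses stayed below 0 under each of them. Averaging probe sets could not change any member value, since each member has 1 probe set. Member calls under averaging moved only through the values of other genes. Between the flagellin arrays the median was 0.14 over the 9 members with a mean of at least 6.525, against 0.39 over all 56. At a size of 1.5-fold, 7 members were higher for flagellin in the arrays labelled Duox2-/- and 16 in wild type. Between the PBS arrays 18 were higher with the label Duox2-/-, and between the flagellin arrays 13. For the difference of responses 2 were higher and 7 lower. The shares of all genes and of other Olfr genes past 1.5-fold were not counted, so these counts have no background beside them. Past 2-fold between the PBS arrays were 4 members after centring and 2 with the mean-level filter. Between the flagellin arrays there were 0 after centring, after loess and with the filter, and for the difference of responses 0 were lower with the filter. For the genotype term 10 members were called after centring, 0 after loess, 3 of 14 with a filter on the highest value and 1 of 9 with one on the mean; for all of these the calls were among the 17. With a variance trend 15 were called, 14 of them among the 17. With averaged probe sets 18 were called, with all 17 among them, and Olfr1423 was added in both. Calls among other Olfr genes were not counted in any alternative. In the main fit the 30.4% of members called higher was near the 31.4% of other Olfr genes. The member counts in the alternatives are therefore no result particular to the members. The filter on the mean left 11372 genes. Over all genes, calls for genotype were 1402 higher and 477 lower (74.6% higher), against 448 higher and 459 lower after centring (49.4%), 1 and 0 after loess, 298 and 247 with the filter on the highest value and 187 and 296 with that on the mean. Calls for flagellin were 52 and 8, against 0 and 0 after loess, 30 and 5 with the filter on the highest value and 18 and 5 with that on the mean, and with a variance trend 19 were lower. For flagellin 1 member was called with a trend and 1 with averaged probe sets. The cause of the loss of calls after loess was not tested. The share of all genes past 2-fold that were higher between the flagellin arrays was 28.7%, and 16.3% after loess. Low signal limits most members, since 47 of 56 had a mean under 6.525.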

Other observations

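Probe sets shared by several receptors were left out of the members, and 3 of them hold genes between Olfr1417 and Olfr1505. The one shared by Olfr1431, Olfr1434, Olfr1436, Olfr1437 and Olfr235 had log2 values of 7.34 and 6.98 in the flagellin and PBS arrays labelled Duox2-/-, against 7.36 and 6.20 in the wild-type flagellin and PBS arrays. Its wild-type flagellin difference was 1.16. The one shared by Olfr1424, Olfr1425 and Olfr1426 had 6.78 and 6.48, against 6.71 and 6.09, and the one shared by Olfr1502 and Olfr1505 had 6.14 and 5.74, against 5.71 and 5.16. In each of them the wild-type PBS array was lowest.

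The members at the limits of the number range had neighbours on other chromosomes. Olfr1417 had 5.87 and 5.65 in the arrays labelled Duox2-/-, against 5.64 and 5.13 in wild type, and Olfr1416, on chromosome 1, had 5.72 and 5.37, against 5.58 and 4.87. Olfr1505 had 5.22 and 4.53, against 4.40 and 4.53, and Olfr1507, the next measured number, on chromosome 14, had 4.48 and 4.26, against 3.88 and 3.83.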
